A study of Rattus norvegicus with 27 samples.

Results

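The genes described here build the machinery by which a neuron fills, docks and releases its synaptic vesicles: the vesicle membrane proteins, the SNARE proteins, their binding partners, the priming factors and the synaptotagmins. They were chosen by name from the platform annotation: Syp, Napa, Napb, Napg, Nsf, Cadps, Cadps2, the Syn genes, and every gene whose symbol starts with Syt, Stx or Snap followed by a digit, or with Stxbp, Vamp, Sv2, Cplx, Rims or Unc13. Of 9769 genes with a single-symbol probe set, 47 met the rule. They had 60 probe sets, and 11 genes had more than 1; the probe set with the highest mean signal stood for the gene. The rule itself used no measured difference, though it was set with earlier results of these data known. Snap25, Vamp1, Napb, Napg, Syn1 and Rims1, central genes of release, had no such probe set in the annotation used, and are not analysed here.

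Expression was measured on Affymetrix arrays in tail motor neurons of adult male Wistar rats, collected from the sacral cord by laser microdissection after retrograde labelling with Fluorogold. One operation cut the cord at S2 and removed a piece of tissue, so that the tail motor neurons lost their input from the brain. The sham operation opened the vertebral canal and left the dura intact. Cords were taken 21 days after operation (8 transected arrays, named Spi-21, and 6 sham arrays, named ShamC-21) or 60 days after it (8 arrays, Spi-60, and 5 arrays, ShamC-60), 27 arrays in all. Every group had buprenorphine after the operation and tracer injections before the cells were taken. Each array carried pooled neurons amplified in a pair of rounds, so fewer expressing cells and less RNA per cell cannot be told apart. Arrays measure RNA in the cell body and not vesicle release at the terminals.

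Transmitter release runs on a cycle. A VAMP on the vesicle and a syntaxin with a SNAP protein on the target membrane zip into a SNARE complex that draws the membranes together. Munc18 and Munc13 proteins prepare the SNAREs, complexins clamp and assist the complex, and synaptotagmins trigger fusion when calcium enters. NSF, an ATPase, and its adaptor alpha-SNAP, encoded by Napa, then take the spent complexes apart so that the SNAREs can be used again. In motor neurons this machinery works at the neuromuscular junction and at the collateral synapses on Renshaw cells. The same families also serve traffic through the Golgi and endosomes, and several members listed here belong mainly to that traffic.

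Some arrays stood apart and bear on every count below. The GAPDH 3′ minus 5′ signal difference lay between 2.57 and 3.47 in Spi-21 replicates 1 to 4 and between 0.985 and 1.46 in replicates 5 to 8. ShamC-60 replicates 1 and 4 held the highest or lowest value of their group for 22 and 24 of the 47 genes, and replicates 2, 3 and 5 for 16, 15 and 17. ShamC-21 replicate 3 did so for 30, and the other ShamC-21 arrays for 10 to 16. In groups this small each array holds many extremes even where none differs. ShamC-21 replicate 3 was left out only in the fits without single arrays. The mean of 14 measured motor neuron genes, of 20 listed, ranged from 9.53 to 9.66 in ShamC-21, from 9.43 to 9.70 in Spi-21, from 8.57 to 9.62 in ShamC-60 and from 9.54 to 9.76 in Spi-60. This mean lay above the median of all probe sets, 6.35, on all 27 arrays. Chat, which encodes the acetylcholine-making enzyme, had no single-symbol probe set in the annotation used. The motor neuron mean was lowest, at 8.57, on ShamC-60 replicate 4, while the other ShamC-60 arrays held 9.47 to 9.62. At 60 days it was 0.29 above sham in transected arrays, with ShamC-60 replicate 4 included (exact permutation test, p = 0.0155, adjusted p = 0.0699). In the same arrays 5 of its 14 genes were called higher by limma (35.7%, beside 10.2% of all probe sets). The mean of 15 interneuron markers of 19 listed, whose cells also release vesicles, lay between 5.87 and 6.72 at 21 days. At 60 days it lay between 6.01 and 7.06, highest on ShamC-60 replicate 4, the array with the lowest motor neuron mean. Transected minus sham it differed by −0.12 (exact permutation test, two-sided, adjusted p = 0.559) and −0.16 (exact permutation test, adjusted p = 0.577). The means of the astrocyte, oligodendrocyte, microglial, vascular and blood lists did not pass either (adjusted p from 0.192 upward over a family of 18 exact permutation tests), though 3 of 12 astrocyte and 3 of 12 microglial markers were called higher by limma at 21 days (25% each, beside 11.3% of all probe sets). The beta-actin 3′ minus 5′ difference was higher after transection by 0.92 at 21 days (exact permutation test, adjusted p = 0.012) and by 1.05 at 60 days (adjusted p = 0.014). It did not overlap between operations: the lowest transected and highest sham values were 2.86 and 2.65 at 21 days and 2.75 and 2.42 at 60 days. The GAPDH difference was higher by 0.81 at 60 days (exact permutation test, adjusted p = 0.0186) and differed by −0.84 at 21 days (exact permutation test, adjusted p = 0.192). The part of these measures in the results was not tested beyond the fits given below, without the named arrays or with a GAPDH or glial marker covariate. No fit had the beta-actin difference as a covariate.

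At 21 days after transection 9 of 47 genes rose and 1 fell. The risers were Syp, Napa, Nsf, Stx1a, Unc13b, Syt7, Syt8, Syt11 and Syt13, and the gene that fell was Rims2. At 60 days 5 genes rose, Syp, Napa, Nsf, Syt3 and Syt8, and 2 fell, Rims2 and Stxbp3. Syp, Napa, Nsf and Syt8 were higher at both days and Rims2 lower at both. Changes were modest: the called genes differed 1.18- to 1.56-fold at 21 days and 1.25- to 1.74-fold at 60 days.

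A gene was called where its adjusted p in the limma fit was under 0.05, with the adjustment over all 12913 probe sets. Against the 19.1% of members that rose at 21 days stood 11.3% of all probe sets, and against the 2.13% that fell stood 11.2%. At 60 days 10.6% of members rose, where 10.2% of all probe sets did, and 4.26% fell, where 8.92% did. The 60-day share of risers was thus near the background. The median difference of the 47 genes was 0.055 on the log2 scale at 21 days (0.014 over all probe sets) and 0.067 at 60 days (0.022 over all). At both days 8.51% of members were higher, beside 5.05% of all probe sets, and 2.13% were lower, beside 5.14%. The other 35 genes were called at neither day.

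These counts rested on part of the arrays. Without Spi-21 replicates 1 to 4 the risers at 21 days went from 9 to 1, Syp. Of all 12913 probe sets 679 rose in that fit, against 1465 in the full fit. In either direction 10.3% of all probe sets passed, against 22.6%. The mean of replicates 5 to 8 lay above the sham mean for 9 of the 9 risers. The risers were called with these same arrays against the same sham arrays, so this count is no separate support. The mean of replicates 1 to 4 was above that of replicates 5 to 8 for 7 of the 9 risers, beside 27 of all 47 members. Without ShamC-60 replicates 1 and 4 the risers at 60 days were 2, Syp and Vamp8, and Rims2 was the 1 gene that fell. With the GAPDH 3′ minus 5′ difference as a covariate Syp was the 1 riser at 60 days and no gene fell (0 by limma), while 11 rose and 3 fell at 21 days, where 30.6% of all probe sets passed. In these last fits 6.17% and 6.73% of all probe sets passed at 60 days, against 19.1%.

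**Figure D1:**
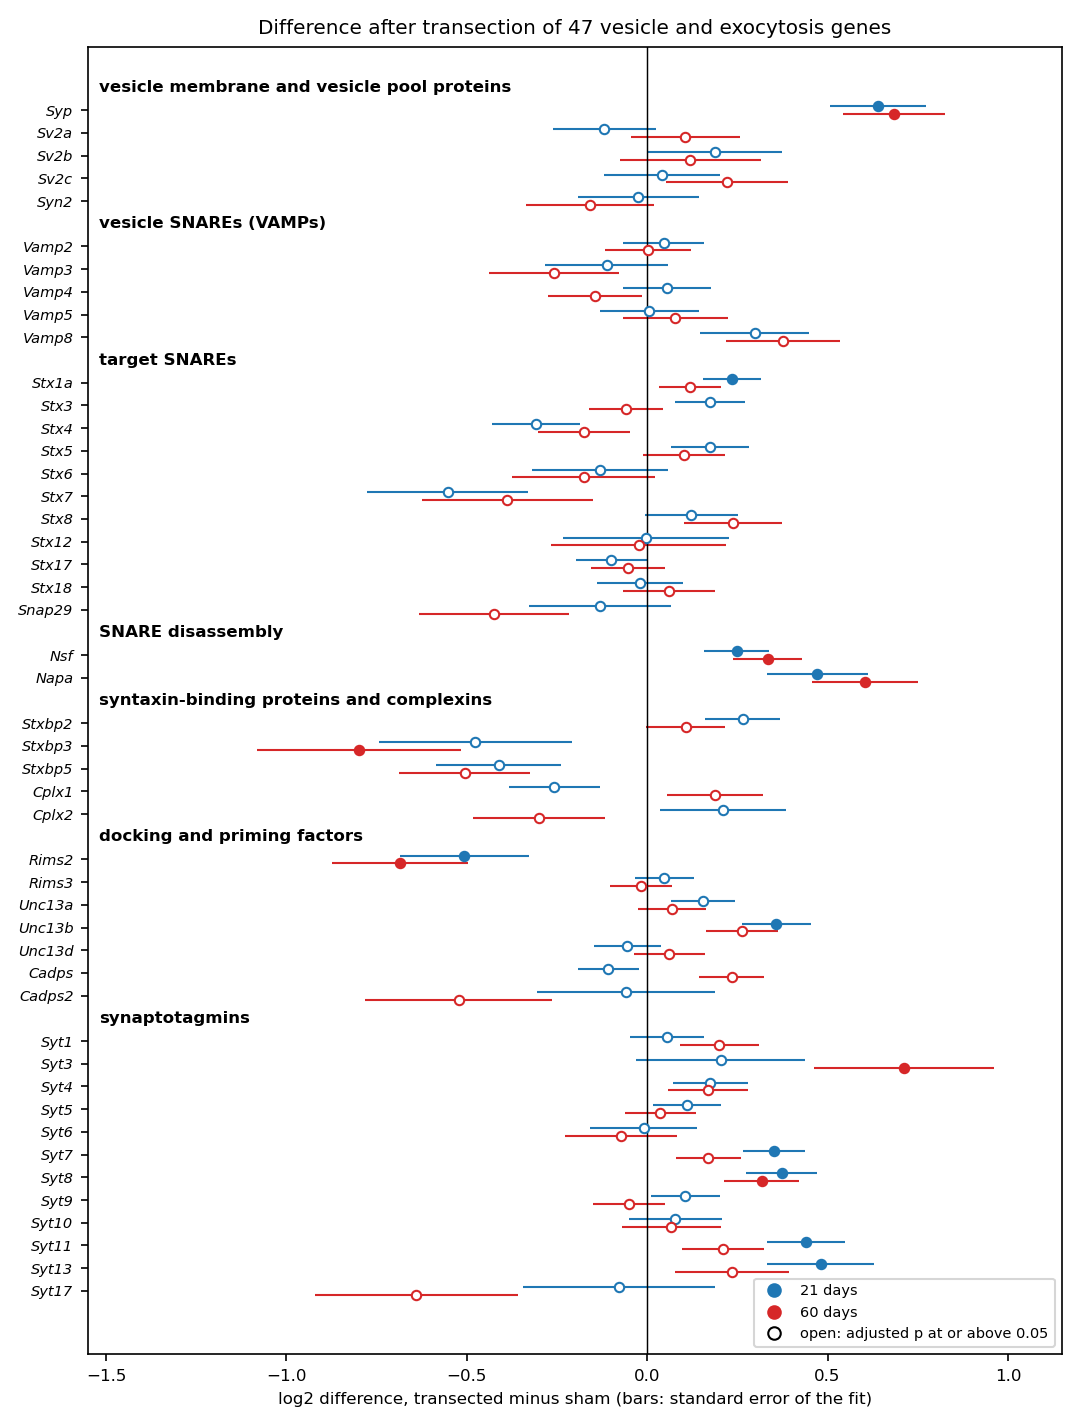
Log2 differences, transected minus sham, of the 47 genes at 21 days (blue) and 60 days (red), grouped by role. Points are limma estimates, bars are standard errors, and filled points mark adjusted p under 0.05. Most points are open, both disassembly genes lie to the right at both days, and Rims2 lies to the left at both.

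Syp and the disassembly pair rose together and are shown with the stretch of genome that precedes each gene. Napa carries the members' full cyclic AMP response element. The sequences are the 250 bases upstream of the RefSeq start in build GRCr8, written 5′ to 3′ on the strand of the gene. They come from chrX:17536450-17536699 (minus strand) for Syp, chr1:85915185-85915434 (plus strand) for Napa and chr10:89357384-89357633 (minus strand) for Nsf. Capitals mark matches, on either strand, of the GC box GGGCGG, which Sp1-type factors recognise, and of the core TGACG of the cyclic AMP response element.
Syp: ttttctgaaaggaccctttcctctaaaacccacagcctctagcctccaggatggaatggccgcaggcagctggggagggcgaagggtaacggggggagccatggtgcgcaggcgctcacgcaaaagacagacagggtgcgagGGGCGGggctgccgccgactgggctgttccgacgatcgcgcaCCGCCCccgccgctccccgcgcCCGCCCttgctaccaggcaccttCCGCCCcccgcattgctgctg
Napa: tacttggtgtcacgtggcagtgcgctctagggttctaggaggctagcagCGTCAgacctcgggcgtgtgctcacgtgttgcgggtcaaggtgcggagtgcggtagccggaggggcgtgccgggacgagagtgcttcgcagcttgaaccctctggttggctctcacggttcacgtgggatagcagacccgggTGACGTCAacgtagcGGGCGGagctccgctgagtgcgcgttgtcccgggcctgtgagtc
Nsf: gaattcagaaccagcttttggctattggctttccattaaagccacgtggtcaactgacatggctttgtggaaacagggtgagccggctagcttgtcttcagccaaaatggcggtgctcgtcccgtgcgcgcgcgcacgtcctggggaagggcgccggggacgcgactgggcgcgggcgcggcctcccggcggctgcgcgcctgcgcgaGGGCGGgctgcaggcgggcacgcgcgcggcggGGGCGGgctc
The Syp window held 4 GC boxes, the Nsf window 2 and the Napa window 1. Napa also held 3 copies of TGACG or its complement, of which a pair overlap as the palindrome TGACGTCA. The Syt8 window held neither motif. A window was found for 40 of the 47 genes. Of these 29 held the GC box (72.5%), beside 54.2% of the windows of 8069 genes in the table and 32.4% of all 27457 windows. TGACG was in 30% of members' windows and 26.4% of the table's, and TGACGTCA in 1 of 40 and 2.63%. The E-box CACGTG was in 17.5% and 7.72%, the NRF1 palindrome in 7.5% and 1.61%, and TATAAA in 2.5% and 8.49%. Both strands were searched, and TGACGTCA always contains TGACG. The GC content had a median of 63.4% in members' windows and 58.8% in those of the table, and its part in these shares was not tested. A match is a run of letters and not a measured site.

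Of the 5 vesicle membrane and vesicle pool genes, 1 rose at either day. Syp encodes synaptophysin, an abundant protein of the synaptic vesicle membrane and a partner of VAMP2. Its signal had a lowest, median and highest value of 9.80, 9.99 and 10.07 in ShamC-21 and of 10.19, 10.40 and 11.16 in Spi-21. In ShamC-60 its values were 9.69, 10.19, 9.81, 10.03 and 10.07, and in Spi-60 the lowest, median and highest were 10.51, 10.56 and 10.89. All 8 transected arrays lay above every sham array at each day, and at 21 days Spi-21 replicates 1 to 4 were the 4 highest. The log2 difference was 0.64 ± 0.134 (SE, limma) at 21 days, 1.56-fold, with adjusted p = 0.00161. At 60 days it was 0.68 ± 0.141, 1.61-fold, with adjusted p = 0.0014. Without Spi-21 replicates 1 to 4 the 21-day difference was 0.34 (limma, adjusted p = 0.0384), and with the GAPDH covariate the 60-day difference was 0.46 (adjusted p = 0.0312).

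The SV2 genes encode vesicle glycoproteins with a transporter fold, and Syn2 encodes a synapsin, which ties vesicles into the reserve pool. None of these 4 was called at 21 or 60 days (adjusted p at least 0.372). Syn2 ranged from 8.80 to 9.56 (median 9.47) in ShamC-21 and from 9.003 to 9.96 (median 9.34) in Spi-21. In ShamC-60 it was 9.73, 9.49, 9.49, 10.55 and 9.47, and in Spi-60 it ranged from 9.22 to 10.13 (median 9.52). The fourth ShamC-60 array stood above the rest, and the groups overlapped at both days. The differences were −0.025 (95% interval −0.37 to 0.32) and −0.16 (−0.52 to 0.20). Sv2b ranged from 7.02 to 7.69 (median 7.14) in ShamC-21, from 6.76 to 8.08 (median 7.36) in Spi-21 and from 6.43 to 7.96 (median 7.26) in Spi-60. Its ShamC-60 values of 7.09, 7.16, 7.32, 7.00 and 7.09 lay within the transected range, and its differences were 0.19 (−0.19 to 0.57) and 0.12 (−0.28 to 0.52). Sv2a had medians of 6.28 in ShamC-21, 6.24 in Spi-21 and 6.45 in Spi-60, with ranges of 6.08 to 6.93, 5.87 to 6.50 and 6.13 to 6.90. Its ShamC-60 values were 6.36, 6.09, 6.13, 6.86 and 6.18. The differences of Sv2a were −0.12 (−0.41 to 0.17) and 0.11 (−0.20 to 0.41). Sv2c lay at 5.30 to 6.18 (median 5.59) in ShamC-21, 5.17 to 6.35 (median 5.73) in Spi-21 and 5.48 to 6.16 (median 5.53) in Spi-60. Its ShamC-60 values were 5.41, 5.36, 5.51, 5.26 and 5.50, and its differences were 0.041 (−0.29 to 0.37) and 0.22 (−0.12 to 0.57).

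SNARE disassembly was the role in which each measured gene rose at each day, 2 of 2, beside 11.3% and 10.2% of all probe sets. Napb and Napg, of the same role, had no single-symbol probe set in the annotation used. Napa, the alpha-SNAP adaptor, had a lowest, median and highest signal of 8.91, 9.08 and 9.42 in ShamC-21 and of 9.37, 9.51 and 10.10 in Spi-21. The ShamC-60 values were 8.75, 9.28, 9.25, 9.34 and 9.17, and the Spi-60 values ran from 9.41 to 10.27 with a median of 9.73. At 21 days 6 of 8 transected arrays lay above every sham array, and at 60 days 8 of 8 did. The differences were 0.47 ± 0.14 (SE, 1.39-fold, limma adjusted p = 0.0171) and 0.60 ± 0.147 (1.52-fold, adjusted p = 0.00539).

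Nsf, the ATPase itself, ranged from 5.92 to 6.19 (median 6.02) in ShamC-21 and from 5.99 to 6.65 (median 6.25) in Spi-21. The ShamC-60 arrays held 5.84, 5.90, 6.05, 5.91 and 5.91, and in Spi-60 it ranged from 6.10 to 6.51 (median 6.23). The 60-day groups did not overlap, while at 21 days 5 of 8 transected arrays lay above all sham arrays. The differences were 0.25 ± 0.0904 (1.19-fold, limma adjusted p = 0.0475) and 0.33 ± 0.0954 (1.26-fold, adjusted p = 0.0154). The 21-day call was lost when any of 18 single arrays was left out, among them Spi-21 replicates 1, 2, 6 and 7. It was also lost in 10 of 13 other settings, among them quantile normalization, array medians subtracted, array weights and the replicate block. Without ShamC-60 replicates 1 and 4, or with the GAPDH covariate, neither Napa nor Nsf passed at 60 days.

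**Figure D2:**
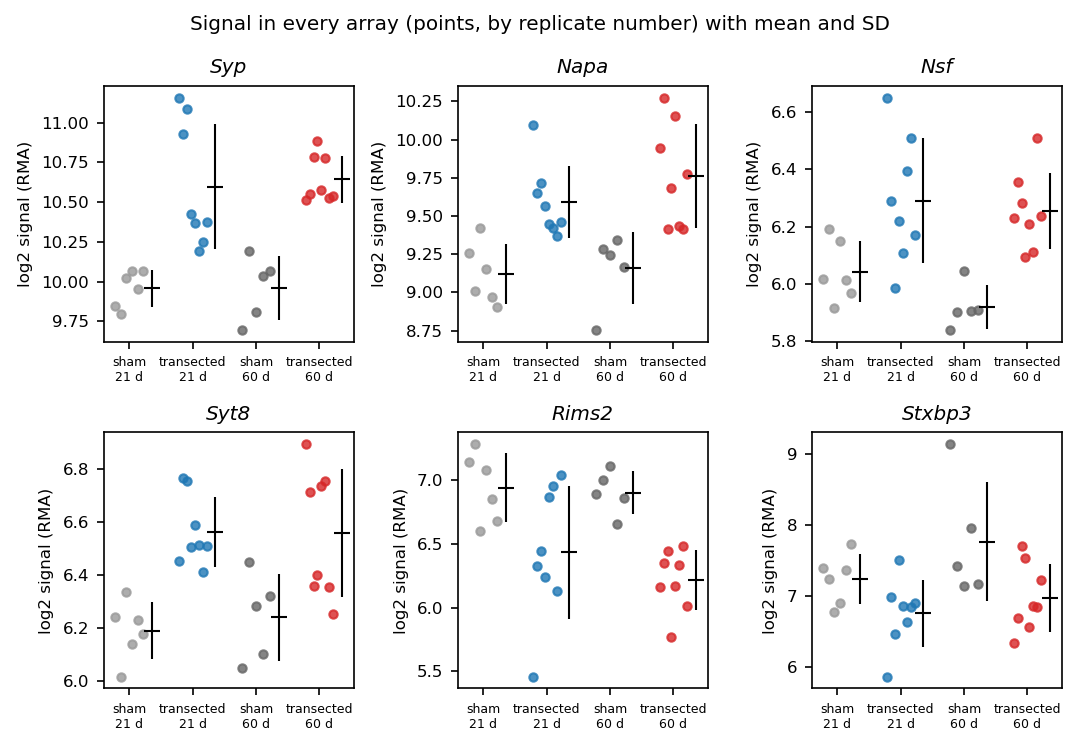
Log2 signal of Syp, Napa, Nsf, Syt8, Rims2 and Stxbp3 in the 4 groups, 1 panel per gene with its own axis, which does not start at 0. Each point is an array, placed from left to right by replicate number, and the cross bar and line are mean and SD. Syp is separated from sham at both days, Napa, Nsf and Rims2 at 60 days, and 1 ShamC-60 array of Stxbp3 lies at 9.14.

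The VAMPs, SNAREs of the vesicle side, held 5 measured genes and no call (0 of 5 at either day by limma, with adjusted p at least 0.151 and 0.0947 and with 0 and 1 at an unadjusted p under 0.05). Vamp2, the VAMP of most fast synapses, ranged from 5.57 to 5.99 (median 5.80) in ShamC-21 and from 5.49 to 6.19 (median 5.80) in Spi-21. Its ShamC-60 values were 5.60, 5.73, 5.58, 5.66 and 6.05, and its Spi-60 values ranged from 5.40 to 6.08 (median 5.73). The groups overlapped almost wholly, and the intervals of the difference were −0.19 to 0.28 and −0.24 to 0.25. Differences in the group ran from −0.11 to 0.30 at 21 days and from −0.26 to 0.38 at 60 days. The upper end was Vamp8, of endosomal and secretory granule fusion, at both days (0.38, limma adjusted p = 0.0947 at 60 days).

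Among 11 target SNAREs 1 rose at 21 days and none at 60 days (0 called by limma, 0 at an unadjusted p under 0.05). Stx1a, a syntaxin of the presynaptic plasma membrane, ranged from 5.85 to 6.12 (median 6.02) in ShamC-21 and from 6.07 to 6.47 (median 6.18) in Spi-21, and 4 of 8 transected arrays lay above all sham arrays. The values in ShamC-60 were 5.88, 6.13, 6.07, 6.02 and 6.05, and in Spi-60 it ranged from 5.89 to 6.29 (median 6.17). The differences were 0.24 ± 0.0809 (1.18-fold, limma adjusted p = 0.0363) and 0.12 ± 0.0854 (adjusted p = 0.343). A second probe set of Stx1a differed by −0.025 at 21 days (adjusted p = 0.941). The call was also lost without any of 7 single arrays: Spi-21 replicate 2, 3 or 8, or ShamC-21 replicate 1, 2, 5 or 6. Stx4, a plasma membrane syntaxin of constitutive traffic, differed by −0.31 at 21 days (adjusted p = 0.0668). The 8 SNAREs of internal membranes, Stx5, Stx6, Stx7, Stx8, Stx12, Stx17, Stx18 and Snap29, ran from −0.55 to 0.17 at 21 days and from −0.42 to 0.24 at 60 days without a call (1 and 0 at an unadjusted p under 0.05). The low end at 21 days was Stx7, a late endosomal syntaxin (adjusted p = 0.0731).

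Of 5 syntaxin-binding proteins and complexins none was called at 21 days (0 by limma, 2 at an unadjusted p under 0.05) and 1 fell at 60 days. Cplx1, complexin 1, ranged from 12.34 to 12.59 (median 12.47) in ShamC-21 and from 11.97 to 12.49 (median 12.16) in Spi-21, where 6 of 8 arrays lay below every sham array. ShamC-60 arrays gave 12.48, 12.36, 12.50, 11.79 and 12.45, and in Spi-60 it ranged from 12.01 to 12.78 (median 12.64). The differences were −0.26 ± 0.126 (limma adjusted p = 0.139) and 0.19 ± 0.133 (adjusted p = 0.332). A second probe set of Cplx1 differed by 0.23 at 21 days (adjusted p = 0.0981), against the sign of the first. Cplx2 ranged from 5.39 to 5.94 (median 5.59) in ShamC-21, from 5.58 to 6.19 (median 5.76) in Spi-21 and from 5.50 to 5.82 (median 5.62) in Spi-60. Its ShamC-60 values were 5.52, 5.67, 5.54, 7.19 and 5.83, and its 60-day difference of −0.30 became 0.0099 without the array at 7.19.

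Stxbp3, a Munc18 family protein of general exocytosis, ranged from 6.77 to 7.73 (median 7.30) in ShamC-21 and from 5.86 to 7.51 (median 6.85) in Spi-21. In ShamC-60 it was 9.14, 7.42, 7.15, 7.96 and 7.17, and in Spi-60 it ranged from 6.33 to 7.71 (median 6.85). The first ShamC-60 array, one of those that stood apart, was far above the others, and 5 of 8 transected arrays lay below every sham array. The 60-day difference was −0.80 ± 0.283 (1.74-fold, limma adjusted p = 0.0468), and at 21 days it was −0.48 (adjusted p = 0.2). Leaving out any of 15 single arrays ended the call, ShamC-60 replicates 1 and 4 among them, with differences between −0.95 and −0.46. The call was also lost in 7 of 14 other settings, among them quantile normalization, array weights, the replicate block and the GAPDH covariate. Stxbp5, tomosyn, an inhibitor of SNARE assembly, differed by −0.41 and −0.51 (adjusted p = 0.0842 and 0.051). A second Stxbp5 probe set differed by 0.015 and 0.073. Stxbp2, the Munc18 of granule release in blood cells, differed by 0.26 at 21 days (adjusted p = 0.0651).

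Of 7 docking and priming factors 1 was higher and 1 lower at 21 days (14.3% each, beside 11.3% and 11.2% of all probe sets). At 60 days 1 was lower (14.3%, beside 8.92%). With 1 gene each way, these shares say little about the group. Rims2 encodes RIM2, an active zone scaffold that binds Rab3 and tethers calcium channels near docked vesicles. It ranged from 6.60 to 7.28 (median 6.96) in ShamC-21 and from 5.46 to 7.04 (median 6.39) in Spi-21. The ShamC-60 arrays held 6.89, 7.00, 7.11, 6.65 and 6.86, and in Spi-60 it ranged from 5.77 to 6.48 (median 6.25). At 60 days every transected array lay below every sham array, and at 21 days 5 of 8 did. The difference was −0.51 ± 0.179 at 21 days (1.42-fold, limma adjusted p = 0.0414) and −0.69 ± 0.189 at 60 days (1.61-fold, adjusted p = 0.0122). The 60-day call held without any single array and without ShamC-60 replicates 1 and 4, but not with the GAPDH covariate. The 21-day call was lost without any of 9 single arrays, Spi-21 replicates 1, 2, 3, 4 and 7 and ShamC-21 replicates 1, 2, 4 and 5. It was also lost with the glial marker covariate (−0.40, limma adjusted p = 0.0875), with quantile normalization, with only the groups of the contrast and without Spi-21 replicates 1 to 4.

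Unc13b encodes Munc13-2, which opens syntaxin for assembly. It ranged from 5.23 to 5.70 (median 5.59) in ShamC-21 and from 5.78 to 6.04 (median 5.92) in Spi-21, with no overlap. The values in ShamC-60 were 5.60, 5.47, 5.72, 5.29 and 5.51, and in Spi-60 it ranged from 5.57 to 6.15 (median 5.72). The differences were 0.36 ± 0.0954 (1.28-fold, limma adjusted p = 0.00896) and 0.26 ± 0.101 (adjusted p = 0.0654). Unc13a, the main Munc13 of fast synapses, had medians of 5.60 in ShamC-21 (5.44 to 5.66), 5.67 in Spi-21 (5.58 to 6.16) and 5.65 in Spi-60 (5.48 to 5.84). Its ShamC-60 values were 5.36, 5.76, 5.52, 5.57 and 5.74. Its differences of 0.16 (−0.026 to 0.34) and 0.068 (−0.12 to 0.26) did not pass.

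Cadps encodes CAPS1, a priming factor of dense core granules. It ranged from 10.77 to 11.07 (median 10.86) in ShamC-21 and from 10.60 to 11.05 (median 10.72) in Spi-21. ShamC-60 arrays gave 11.03, 10.85, 10.96, 11.11 and 10.74, and in Spi-60 it ranged from 10.95 to 11.39 (median 11.16). Neither difference from sham passed, −0.11 ± 0.0859 (limma adjusted p = 0.383) and 0.23 ± 0.0907 (adjusted p = 0.0688). Within the transected arrays it was the 1 member that changed between the days, higher by 0.39 ± 0.0796 at 60 days (1.31-fold, limma adjusted p = 0.0436), where 0.0852% of all probe sets passed. In sham arrays its change was 0.052 ± 0.0963 (adjusted p = 0.999). The call within transected arrays was lost without any of 19 single arrays.

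The synaptotagmins held 4 risers of 12 at 21 days (33.3%, beside 11.3% of all probe sets) and 2 of 12 at 60 days (16.7%, beside 10.2%). No gene of the family fell (0 by limma at each day, beside 11.2% and 8.92% of all probe sets). Syt8 has lost the calcium-binding residues of the calcium sensors. It ranged from 6.02 to 6.34 (median 6.20) in ShamC-21 and from 6.41 to 6.76 (median 6.51) in Spi-21, with no overlap. In ShamC-60 it was 6.05, 6.45, 6.28, 6.10 and 6.32, and in Spi-60 it ranged from 6.25 to 6.89 (median 6.56), where 4 of 8 arrays lay above every sham array. The differences were 0.37 ± 0.0992 (1.29-fold, limma adjusted p = 0.00897) and 0.32 ± 0.105 (1.25-fold, adjusted p = 0.0331). The 60-day call was lost without any of 6 single arrays: Spi-60 replicate 1, 2, 5 or 6, or ShamC-60 replicate 1 or 4.

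Syt11, which does not bind calcium and acts in endocytosis, ranged from 6.02 to 6.32 (median 6.24) in ShamC-21 and from 6.34 to 6.91 (median 6.68) in Spi-21, again with no overlap. The ShamC-60 arrays held 6.08, 6.24, 6.28, 6.07 and 6.57, and in Spi-60 it ranged from 6.08 to 6.82 (median 6.47). The differences were 0.44 ± 0.108 (1.36-fold, limma adjusted p = 0.00526) and 0.21 ± 0.114 (adjusted p = 0.196). Syt13, another member that does not bind calcium, ranged from 4.94 to 5.59 (median 5.27) in ShamC-21 and from 5.31 to 6.13 (median 5.87) in Spi-21. Its ShamC-60 values were 5.29, 5.20, 5.24, 5.39 and 5.58, and its Spi-60 values ranged from 5.10 to 6.15 (median 5.66). The differences were 0.48 ± 0.149 (1.40-fold, limma adjusted p = 0.022) and 0.23 ± 0.157 (adjusted p = 0.304), and the 21-day call was lost without ShamC-21 replicate 4.

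Syt7, a slow, high-affinity calcium sensor, ranged from 5.23 to 5.47 (median 5.31) in ShamC-21 and from 5.40 to 5.84 (median 5.70) in Spi-21. The values in ShamC-60 were 5.41, 5.49, 5.40, 5.24 and 5.40, and in Spi-60 it ranged from 5.21 to 5.84 (median 5.58). The differences were 0.35 ± 0.0858 (1.28-fold, limma adjusted p = 0.00501) and 0.17 ± 0.0905 (adjusted p = 0.187). Its other probe sets did not give 1 answer. One differed by 0.32 at each day (adjusted p = 0.0435 and 0.0655), and another by 0.077 at 21 days (adjusted p = 0.619) and by 0.46 at 60 days (adjusted p = 0.00448). Each of the 3 was positive at both days. The brightest and the one at 0.32 were called at 21 days alone, and the one at 0.46 at 60 days alone.

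Syt3, a high-affinity sensor of the plasma membrane, had the widest spread of the 47 genes in Spi-21 (SD 0.704). It ranged from 9.21 to 9.69 (median 9.40) in ShamC-21 and from 8.71 to 10.62 (median 9.30) in Spi-21. Replicates 1, 2 and 3 of Spi-21 held 10.32, 10.40 and 10.62, above every sham array, while the other 5 lay between 8.71 and 9.35. ShamC-60 arrays gave 8.97, 9.64, 9.27, 8.70 and 9.62, and in Spi-60 it ranged from 9.25 to 10.25 (median 10.06), with 7 of 8 arrays above every sham array. The differences were 0.20 ± 0.236 (limma adjusted p = 0.562) and 0.71 ± 0.249 (1.64-fold, adjusted p = 0.0434). The 60-day call was lost without any of 9 single arrays: ShamC-60 replicate 1, 3 or 4, or Spi-60 replicate 1, 2, 3, 4, 5 or 7. A second Syt3 probe set differed by 0.068 and 0.057 (adjusted p = 0.644 and 0.729).

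Syt1, the fast calcium sensor of most synapses, ranged from 5.43 to 5.76 (median 5.55) in ShamC-21, from 5.30 to 5.88 (median 5.59) in Spi-21 and from 5.45 to 6.09 (median 5.70) in Spi-60, and was 5.25, 5.61, 5.55, 5.67 and 5.53 in ShamC-60. The groups overlapped, and the differences were 0.055 (−0.16 to 0.27) and 0.20 (−0.023 to 0.42). The other synaptotagmins, Syt4, Syt5, Syt6, Syt9, Syt10 and Syt17, were not called. Syt17 had the lowest value of the family, −0.64 at 60 days (limma, unadjusted p = 0.0305, adjusted p = 0.108).

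**Figure D3:**
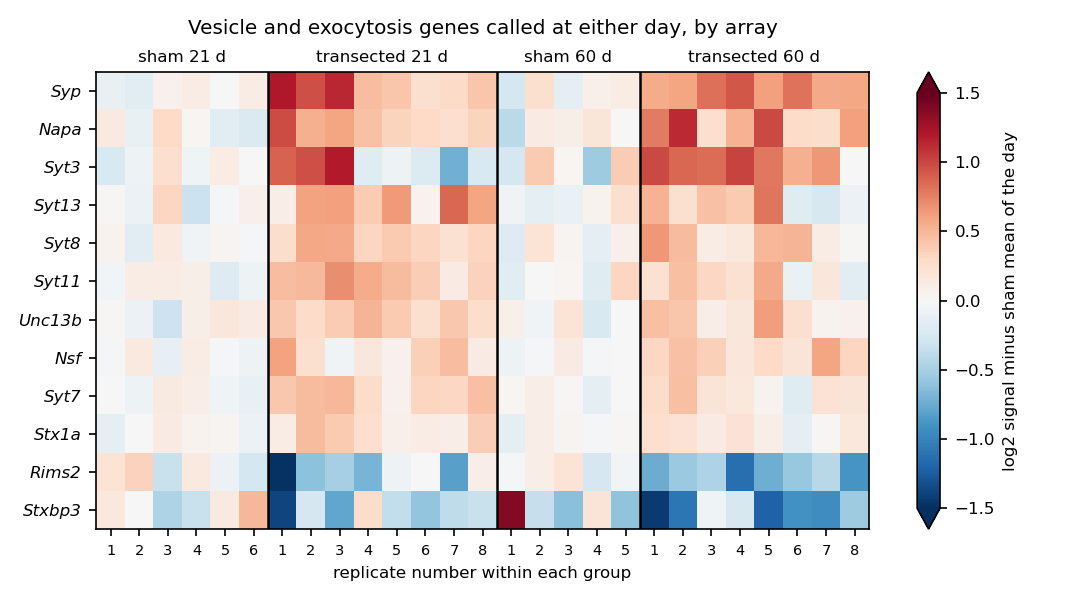
The 12 genes called at either day (rows) in each of the 27 arrays (columns, by group and replicate number). Colour is the log2 signal minus the sham mean of the same day, red for higher and blue for lower. Syp and Napa are red in all transected columns, Rims2 is blue in all 60-day transected columns, and Syt3 is red in Spi-21 replicates 1 to 3 and not in the other 5.

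Calls were also counted by signal height. In all, 22 of the 47 genes had a mean signal above the median of all probe sets, 6.35. Above it 4 of 22 rose and 1 fell at 21 days, beside 10.6% and 16.7% of all probe sets that bright. At 60 days 4 of 22 rose and 2 fell, beside 14.8% and 13.7%. Of the 25 dimmer genes 5 rose at 21 days and 1, Nsf, at 60 days, beside 12.1% and 5.54%; none fell (0 by limma at each day), beside 5.82% and 4.15%. The deposited table holds no detection calls, so a dim gene may lie near background.

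Groups did not overlap for 4 genes at 21 days, Syp, Syt8, Syt11 and Unc13b, each higher in all 8 transected arrays (8.51% of members, beside 3.07% of all probe sets). No member was lower in this way at 21 days (0 of 47, beside 2.22%). At 60 days 3 genes were higher without overlap, Syp, Napa and Nsf (6.38%, beside 4.78%), and 1, Rims2, was lower (2.13%, beside 3.42%).

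The change of the transection difference between the days was tested directly. No member was called (0 of 47 by limma, 2 at an unadjusted p under 0.05, beside 0% of all probe sets called). Cadps had the smallest p, with a value of 0.34 (unadjusted p = 0.0109, adjusted p = 0.647), and Cplx1 had a value of 0.45 (unadjusted p = 0.0217, adjusted p = 0.653). The 5 genes called at 21 days alone and the 2 called at 60 days alone were therefore not shown to differ between days. The sign was the same at both days for 37 of 47 genes. Without Spi-21 replicates 1 to 4 Syt3 was called here (1.02, limma adjusted p = 0.0423). In sham arrays no member changed between the days (0 by limma, 1 at an unadjusted p under 0.05, Vamp3, beside 0% of all probe sets).

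**Figure D4:**
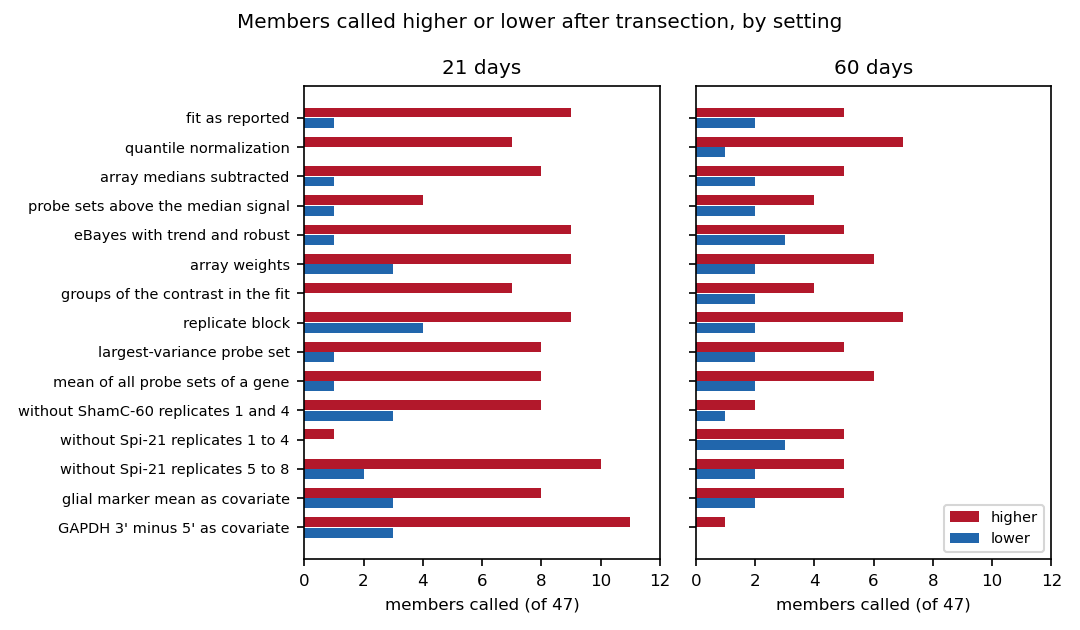
Number of the 47 genes called higher (red) or lower (blue) at 21 days (left) and 60 days (right) under each setting of the analysis; the setting with probe sets above the median signal holds 22 genes in place of 47. The 21-day risers go from 9 to 1 without Spi-21 replicates 1 to 4, and the 60-day risers from 5 to 1 with the GAPDH covariate.

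Related genes outside the rule were read from 6 lists, given beside the same background of 11.3% higher and 11.2% lower at 21 days and 10.2% and 8.92% at 60 days. Of 27 measured genes of vesicle endocytosis and recycling (33 listed), 5 rose and 3 fell at 21 days, and 12 rose and 2 fell at 60 days (44.4% and 7.41%). The median difference at 60 days was 0.29. Ap2s1, the small subunit of the AP2 clathrin adaptor, rose by 1.19 at both days (limma adjusted p = 1.44e-05 and 2.5e-05). Ap2m1, its cargo-binding subunit, rose by 0.71 and Sh3glb2, an endophilin B, by 0.94 at 60 days. Sh3glb1, the related endophilin B1, fell by 0.58 at 21 days, and Epn1, the adaptor epsin 1, rose by 0.37. Without ShamC-60 replicates 1 and 4 the list had 6 risers at 60 days, where 472 of all 12913 probe sets rose, against 1311 in the full fit. Without Spi-21 replicates 1 to 4 the list had 2 risers at 21 days, where 679 of all probe sets rose, against 1465.

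Vesicle membrane proteins and transmitter transporters had 3 risers and 2 genes that fell of 14 at 21 days, and 2 and 0 at 60 days. Slc18a3, the vesicular acetylcholine transporter of motor neurons, rose by 1.48 at 60 days (limma adjusted p = 0.000434), and Scamp3, a secretory carrier membrane protein, by 0.64. At 21 days Scamp4 and Slc17a7, a vesicular glutamate transporter, rose by 0.32 each and Scamp2 fell by 0.46. The list of vesicle chaperones and SNARE regulators had 4 risers of 14 at each day, with 0 and 1 that fell. They were led by Bsg, a cell surface glycoprotein whose place in this list is loose (0.86 and 1.30), and Nrxn2, the presynaptic adhesion protein neurexin 2 (0.61 and 0.78). Lin7a, a presynaptic scaffold protein, rose by 0.33 at 21 days and Sgta, a cochaperone, by 0.53 at 60 days.

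Active zone scaffolds and Rab3 partners had 3 higher and 2 lower of 19 at 21 days and 0 and 1 at 60 days. Ppfia1, liprin alpha 1, and Pclo, the scaffold piccolo, rose by 0.29 and 0.30 at 21 days, Rab3c fell by 0.42, and Rab3d fell by 0.55 at 60 days. Of 10 dense core granule genes 1 rose and 2 fell at 21 days, and 3 rose and 1 fell at 60 days. Pcsk1n, an inhibitor of prohormone convertase 1, rose by 1.49 and 1.87, while Chgb, the granule matrix protein chromogranin B, fell by 0.77 and 1.24. Ptprn2 fell by 0.25 at 21 days and Ptprn rose by 0.75 at 60 days; both encode granule membrane proteins. Golgi and endosomal SNAREs and tethers had 1 higher and 1 lower of 19 at 21 days and 1 and 3 at 60 days. Scfd1, the Golgi counterpart of Munc18, fell by 1.01 at 60 days, and Bet1, a SNARE between the endoplasmic reticulum and the Golgi, fell by 0.34. Bnip1, a SNARE of the endoplasmic reticulum, rose by 0.54 and 0.43, and Exoc2, an exocyst subunit, fell by 0.45 at 21 days. Within all 6 lists these counts were not compared by a test with those of the other genes.

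**Figure D5:**
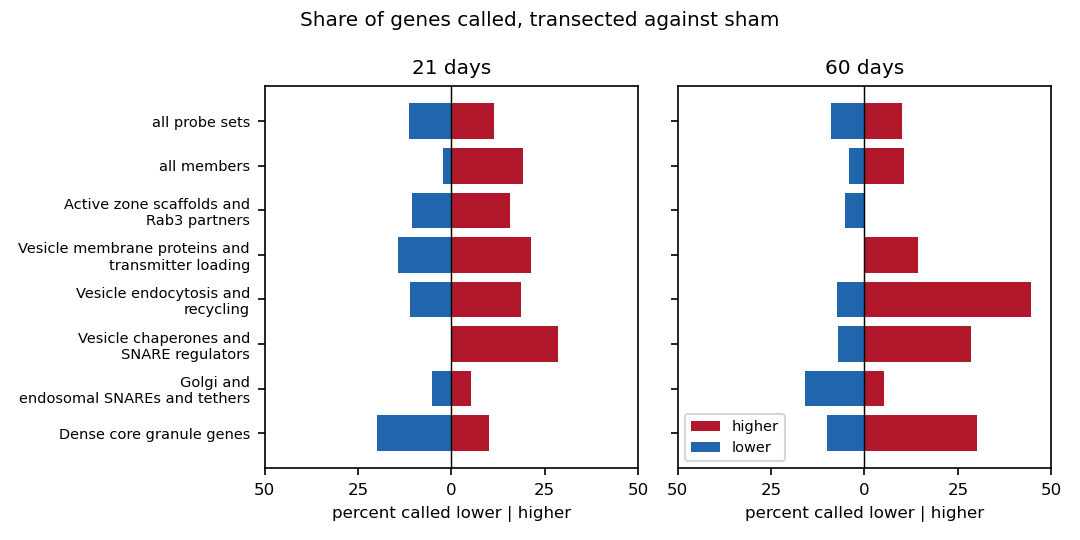
Share of genes called higher (red, right of 0) or lower (blue, left of 0), in percent, among all probe sets, the 47 vesicle and exocytosis genes (all members) and each related list, at 21 days (left) and 60 days (right). Endocytosis and recycling at 60 days reaches 44.4% higher, while the 47 genes, at 10.6%, lie near the 10.2% of all probe sets.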

How the data were processed

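Per the submitters' processing notes, the authors made the deposited log2 values by RMA, which corrects background, normalizes arrays and summarises probes; the RMA version is not given in the sources used here. On 27 arrays 12919 probe sets were listed, with array medians from 6.31 to 6.41 and pair correlations from 0.825 to 0.989. Arrays carry no count depth, so their number limits the precision. Labels number biological replicates without tying them to animals or batches, so each p-value reflects the scatter among samples, which may in part be technical.

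The 12913 probe sets left after 6 control sets were fitted in R 4.3.3 with limma 3.58.1 (lmFit, eBayes), 4 groups in 1 fit with no covariate. P-values were two-sided and adjusted by Benjamini-Hochberg over all probe sets, with 0.05 as threshold. Errors after ± are standard errors. The steps were tested on simulated data. Array measures were compared in Python 3.11.15 with scipy 1.17.1, and plots made with matplotlib 3.10.9. Promoter windows came from RefSeq (GRCr8), matched by symbol; gene symbols came from the platform annotation, and all 47 gene identifiers were in the RefSeq table.

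Members and lists were chosen with earlier results of these data known, as were the arrays left out. Values are given in full for called members (up to 10 per direction and day) and for a fixed set of 22 core genes, 14 of them measured, and up to 3 called genes with the smallest p are named per related list and day. The alternatives tried were other normalizations, a signal filter, a trended robust spread, array weights, the groups of the contrast alone, a replicate block, other probe set rules, marker and GAPDH covariates, and leaving out arrays.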

Additional observations from a re-analysis of the deposited data

Results flagged for a closer look

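In 88 groups of array values of the fully described genes, 9 held an array far from the others by Dixon's criterion, which chance meets in about 1 group in 20. ShamC-60 replicate 4 gave 3 of them: Cplx1 at 11.8 (nearest array 12.4), Cplx2 at 7.19 (nearest 5.83) and Syn2 at 10.6 (nearest 9.73). In ShamC-21, Sv2a was 6.93 in replicate 6 (nearest 6.34), Sv2b was 7.69 in replicate 5 (nearest 7.21) and Syn2 was 8.80 in replicate 4 (nearest 9.37). In the transected groups, Sv2c was 6.16 in Spi-60 replicate 1 (nearest 5.70), Syt3 was 9.25 in Spi-60 replicate 8 (nearest 9.78) and Unc13a was 6.16 in Spi-21 replicate 1 (nearest 5.85). None of these arrays was removed from the reported fit.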

How the results depend on the processing

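The 9 risers at 21 days were 4 under the signal filter, which left 22 genes, and 1 without Spi-21 replicates 1 to 4. The 1 gene lower at 21 days was 0 with quantile normalization, with only the groups of the contrast and without Spi-21 replicates 1 to 4; 2 without Spi-21 replicates 5 to 8; 3 with array weights, the glial covariate (without Rims2), the GAPDH covariate or without ShamC-60 replicates 1 and 4; and 4 with the replicate block. Quantile normalization dropped Nsf and Stx1a from the 21-day risers. The 5 risers at 60 days were 2 without ShamC-60 replicates 1 and 4 and 1 with the GAPDH covariate. With quantile normalization and with array weights Cadps and Vamp8 were added to the 60-day risers, and array weights dropped Syt8. The 2 lower at 60 days were 1 with quantile normalization or without ShamC-60 replicates 1 and 4, and 0 with the GAPDH covariate. With array weights the genes lower at 60 days were Rims2 and Snap29, and with the replicate block Rims2 and Stxbp5, without Stxbp3 in either. Leaving out single arrays gave 7 to 9 and 0 to 3 genes at 21 days, 3 to 7 and 1 to 3 at 60 days, 0 for the change of the difference, 0 to 1 within transected and 0 within sham arrays. The 1 change within transected arrays was 0 with array medians subtracted, the trended robust spread, array weights, only the groups of the contrast, the replicate block or the glial covariate, and 3 without Spi-21 replicates 1 to 4 (Snap29, Syp and Syt3, without Cadps), where the change of the difference had 1 call. The causes were not tested.

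Some small differences changed sign. Without Spi-21 replicates 1 to 4 the 21-day values were −0.24 for Sv2c, 0.11 for Syn2, −0.31 for Syt3 and −0.067 for Vamp2, and without replicates 5 to 8 Sv2a was 0.026. Without ShamC-60 replicates 1 and 4 the 60-day values were 0.11 for Syn2, −0.016 for Unc13a and −0.061 for Vamp2. Quantile normalization gave 0.079 for Syn2 at 21 days and −0.030 for Vamp2 at 60 days. Array weights gave −0.054 for Sv2c and 0.012 for Syn2 at 21 days, and 0.073 for Syn2 and −0.017 for Vamp2 at 60 days. The GAPDH covariate gave −0.013 for Sv2c and −0.073 for Vamp2 at 60 days, and the largest-variance probe set −0.025 for Stx1a at 21 days. Single arrays left out gave −0.052 to 0.14 for Sv2c, −0.14 to 0.024 for Syn2 and −0.0076 to 0.092 for Vamp2 at 21 days, and −0.41 to 0.0099 for Cplx2, −0.24 to 0.043 for Syn2 and −0.049 to 0.083 for Vamp2 at 60 days.

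Same-numbered transected and sham arrays correlated in their deviations from group means between −0.309 and 0.331, above 0.1 in 4 of 11 pairs, so the numbers were not taken to pair samples. With the replicate block 9 rose and 4 fell at 21 days, and 7 rose and 2 fell at 60 days. The number of arrays per group limits the precision, and without detection calls dim genes may lie near background.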
